A study of Kluyveromyces lactis with 12 samples.

Results

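The genes described here lie near the chromosome ends of the budding yeast Kluyveromyces lactis, next to but not at the very tips. On each of the 6 chromosomes, A to F, the genes of the array were ordered by the number in their identifier, and those at positions 4 to 15 from either end were taken. The left end is the one with the low numbers. The 12 ends gave 144 genes. ARR2 and ARR1, the deleted gene, were left out together with 2 further genes, and 140 of the 5081 genes on the array remained. Of these, 138 were bright enough to be tested, as were 5069 genes in all. The other 2, KLLA0D00264g and KLLA0D00269g, were not well above background in any group. RefSeq (ASM251v1) gives a symbol for 49 of the 140 genes, and 91 are known only by their identifier.

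The study set the strain Klyap8∆, in which the gene of the transcription factor KlYap8 is deleted, against the wild type Klwt on 12 two-colour arrays. Cells growing exponentially in YPD, a rich medium, were given t-BOOH (tert-butyl hydroperoxide, 0.25 mM) or sodium arsenite for 30 min, or were left untreated. For arsenite the treatment labels give 25 mM and the protocol 0.1 mM. Each condition had 4 biological experiments, 2 of them with the dyes swapped, and each array carried both strains from 1 condition. RNA of whole cultures was measured, so fewer cells and less RNA per cell cannot be told apart, and the sources used here do not say whether the deletion strain is 1 clone.

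The median spot brightness of an array was 719 to 3048.75 in Cy3 and 2373.75 to 7526 in Cy5, over backgrounds of at most 39. ARR1 had a mean log2 ratio of deletion over wild type of -1.69 under t-BOOH, -2.09 under arsenite and -1.13 in untreated cells, and was below 0 on all 12 arrays. Of the 12 arrays, 3 stood apart. The deletion ratios of t-BOOH replicate 3 correlated at only 0.03 on average with those of the other t-BOOH arrays over all genes. Levels on t-BOOH replicate 1 and untreated replicate 4 correlated at 0.921 and 0.943 with the other arrays of their condition, against 0.966 or more on the other 10 arrays. All t-BOOH arrays were on slide 2, while slide 1 held those of arsenite and of untreated cells. Slide and condition therefore cannot be told apart where t-BOOH is set against untreated cells. Both strains always shared an array.

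Subtelomeres are the stretches of chromosome that lead up to the telomeres. In yeasts they are rich in gene families whose members differ between ends, among them transporters, cell surface proteins and enzymes for nutrients that are used only at times. In Saccharomyces cerevisiae genes close to a telomere can be silenced by Sir proteins, which also keep the spare mating-type cassettes silent. Because copies of a family can be nearly identical, an array probe may pick up more than 1 of them.

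The median effect of the deletion was smaller at positions 4 to 15 than at positions 1 and 2. At position 1 the median log2 ratio of deletion over wild type was -1.41 under t-BOOH, -2.42 under arsenite and -2.11 in untreated cells. At position 2 the medians were -0.66 under t-BOOH, -0.69 under arsenite and -0.32 in untreated cells. At position 3 the medians were -0.14 under t-BOOH, -0.14 under arsenite and -0.24 in untreated cells, and at position 4 they were -0.01, -0.08 and -0.07 in the same order. Further in, the t-BOOH medians at position 5 (-0.27), 11 (-0.30) and 12 (-0.21) lay further below 0 than that at position 3. At the inner edge, position 15 had medians of -0.15, -0.02 and -0.09 and position 16 of -0.12, -0.07 and -0.05, again under t-BOOH, arsenite and in untreated cells. Over all 138 genes the median was -0.10 under t-BOOH, -0.06 under arsenite and 0.02 in untreated cells, against 0.00, 0.00 and 0.01 over all 5069 genes. Ratios were below 0 for 88 of the 138 genes under t-BOOH (63.8%), 90 under arsenite (65.2%) and 63 in untreated cells (45.7%). Over all genes the shares below 0 were 49.5%, 49.7% and 48.2% in the same order. Without t-BOOH replicate 3 the t-BOOH median was -0.21, and with median centring in place of loess it was -0.23. Without arsenite replicate 4 the arsenite median was -0.03, and without untreated replicate 4 the untreated median was -0.04, below 0. These are descriptions without a test.

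**Figure D1:**
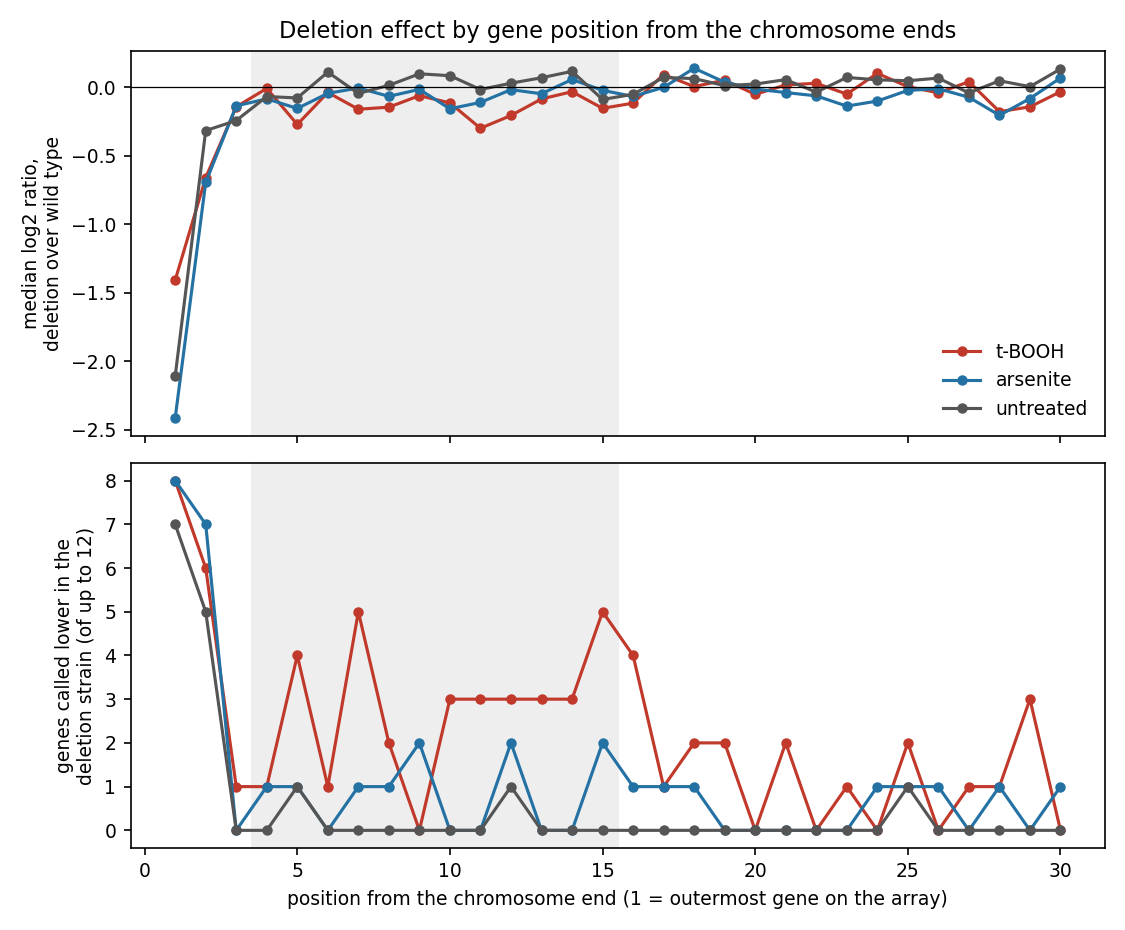
Upper panel, median log2 ratio of deletion over wild type (vertical axis) by gene position from the chromosome end (horizontal axis, positions 1 to 30), with a line for each of t-BOOH, arsenite and untreated cells. Lower panel, the number of genes at each position called lower in the deletion strain; the grey band marks positions 4 to 15. The medians are far below 0 at position 1, and from position 4 on none is below the -0.30 of t-BOOH at position 11, while calls under t-BOOH continue through the band, with 5 at position 7 and 5 at position 15.

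Under t-BOOH, 36 of the 138 subtelomeric genes were called, 33 lower and 3 higher in the deletion strain than in the wild type (limma, Benjamini-Hochberg adjusted p under 0.05 over all genes). Of all 5069 genes 18% were called, 10.6% lower and 7.42% higher. The lower share among the subtelomeric genes was 23.9%. It was 19.7% at positions 4 to 9 and 27.8% at positions 10 to 15, and 10.5% of the 143 genes tested at positions 16 to 27. The lower genes included the biotin genes BIO3, BIO4 and BIO5, the mitochondrial glycerol-3-phosphate dehydrogenase gene GUT2, the glutathione exchanger gene GEX1 and the serine and threonine deaminase gene CHA1, as these are known in S. cerevisiae. The higher genes were URA1, HMLALPHA1 and KLLA0A11957g. Of the 36, 23 had the same sign on all 4 arrays, 20 lower and 3 higher.

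The 2 largest of these differences lay in a row of neighbours on the left end of chromosome B. BIO5, known in S. cerevisiae as a transporter of biotin precursors, BIO4, the dethiobiotin synthetase, and BIO3, the aminotransferase that acts before BIO4, occupy positions 10, 11 and 12. KLLA0B00451g follows at position 13. BIO4 had log2 ratios of -1.78, -1.81, -1.74 and -1.78 on t-BOOH replicates 1 to 4, all within a narrow band, and was 3.42-fold lower in the deletion strain (SE 0.22 on the log2 scale, adjusted p = 3.83e-04). BIO5 had ratios of -1.81, -1.39, -1.28 and -1.62, a 2.88-fold lower level (SE 0.17, adjusted p = 1.69e-04). BIO3 had ratios of -0.86, -1.09, -0.52 and -1.18, a 1.88-fold lower level (SE 0.12, adjusted p = 4.16e-04). For all 3 genes every t-BOOH array lay well below 0. KLLA0B00451g had ratios of -0.42, -0.48, -0.75 and -1.37 (mean -0.75, adjusted p = 0.0147), a call lost without t-BOOH replicate 4 (-0.55).

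On the same arrays the level of BIO4 in the wild type was higher under t-BOOH than in untreated cells. Its log2 normalized intensity in the wild-type channel was 12.34, 11.66, 12.50 and 12.14 under t-BOOH and 11.22, 11.31, 11.03 and 10.93 in untreated cells, and the groups did not overlap. In the deletion channel it was 10.56, 9.85, 10.76 and 10.36 under t-BOOH and 10.66, 10.63, 11.40 and 9.60 in untreated cells, and the groups overlapped. The log2 change under t-BOOH was 1.04 (adjusted p = 0.0157) in the wild type and -0.19 in the deletion strain. For BIO3 these changes were 1.59 (adjusted p = 3.06e-07) and 0.89. BIO5 had 0.50 in the wild type and -0.50 in the deletion strain, and neither passed. In untreated cells the ratios of deletion over wild type of BIO4 were -0.56, -0.68, 0.38 and -1.33, so the arrays disagreed in sign. Under arsenite the ratios of BIO4 were -0.58, 0.73, 0.28 and -0.50. BIO5 had a log2 change of -1.21 under arsenite in the wild type (limma, adjusted p = 0.00309). BIO4 did not pass the test of the deletion effect under t-BOOH minus that in untreated cells, so a strain difference in its response was not shown.

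Further along the same end, ARO5 at position 15 had ratios of -1.5, -0.83, -0.94 and -0.87 under t-BOOH (2.05-fold lower in the deletion strain, SE 0.12, adjusted p = 2.77e-04). Between them KLLA0B00473g at position 14 did not follow, with a mean ratio of 0.35. In all, 7 of the 12 genes of the left end of B were called lower, as were 7 of the 10 genes tested on the left end of D, 5 on the right end of B and 4 on the right end of D. The left ends of A and C had 3 each. None was called lower on the right ends of C and F, and 1 each on the right end of A, both ends of E and the left end of F. The lower genes KLLA0B00242g, KLLA0D00231g and KLLA0D19957g, all at position 5, had nearly the same profile (correlations of 0.987 and 0.984 with the first). At position 7, KLLA0B00286g and KLLA0D00258g had like means of -0.64 and -0.60. The counts on the ends of B and D may therefore partly repeat the same signal, which was not tested. On the left end of D the lower genes included the neighbours KLLA0D00275g, KLLA0D00330g and KLLA0D00352g at positions 10 to 12, with means of -0.65, -0.91 and -0.55, and PEX2 (-0.68), which in S. cerevisiae acts in protein import into peroxisomes.

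**Figure D2:**
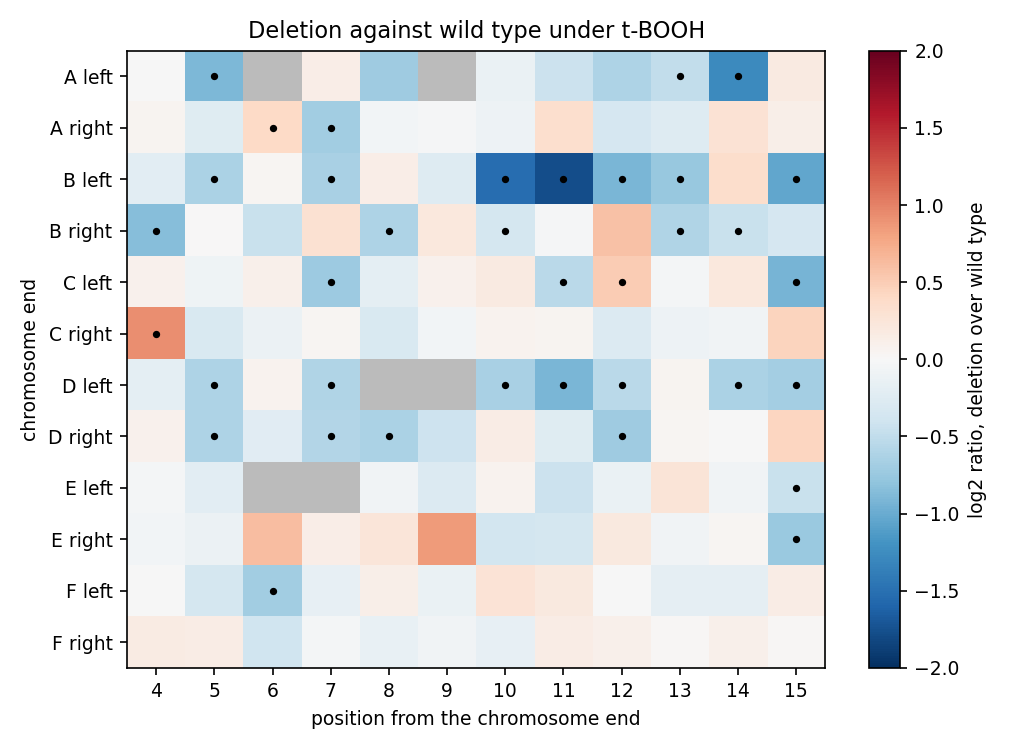
Log2 ratio of deletion over wild type under t-BOOH (colour, blue lower and red higher in the deletion strain) for each gene, with the 12 chromosome ends as rows and positions 4 to 15 as columns. A black dot marks an adjusted p under 0.05 and grey squares are genes left out or too dim. The darkest blue squares are BIO5 and BIO4 on the left end of B. The blue squares with dots gather on the ends of B and D, where some genes may not be separate measurements.

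Of the 33 lower genes, 20 had a neighbouring gene on the array that was also called lower (60.6%), against 172 of all 538 genes called lower (32.0%). Lower calls were denser among the subtelomeric genes (23.9%) than among all genes (10.6%), so these shares are not on an equal footing. In all, 6 runs of adjacent called genes held 15 genes. Besides those named they were UBP7, a ubiquitin protease in S. cerevisiae, with GUT2 on the left end of A, KLLA0B14685g with KLLA0B14619g on the right end of B, KLLA0D00396g with PEX2 on the left end of D, and KLLA0D19949g with KLLA0D19945g on the right end of D. Neighbours are not independent, and no test was made of this clustering.

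GUT2 showed how far t-BOOH replicate 3 differed. Its ratios were -2.02, -1.49, 0.24 and -1.85, and the mean of -1.28 (adjusted p = 0.0114) came from the other 3 arrays. KLLA0D00330g had ratios of -1.44, -1.30, 0.11 and -1.0, and KLLA0F00264g of -1.06, -1.09, 0.13 and -0.79. The 33 lower genes, which were called from these arrays, had medians of -0.79, -0.91, -0.06 and -0.85 on replicates 1 to 4. Replicate 3 had 20 of the 33 below 0, and each other array all 33. Over all 138 genes, 90, 88, 57 and 97 were below 0 (65.2%, 63.8%, 41.3% and 70.3%), against 49.5%, 50.7%, 49.6% and 50.7% of all genes. Without replicate 3 the count of called genes was 54. It was 17 without replicate 1, 13 without replicate 2 and 15 without replicate 4. Here and below, counts under other settings stand without the share of all genes called under the same setting. They therefore do not show whether such shifts are particular to the subtelomeric genes. With the spread estimated from the 4 t-BOOH arrays alone, 1 gene passed, BIO4 (adjusted p = 0.0232).

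**Figure D3:**
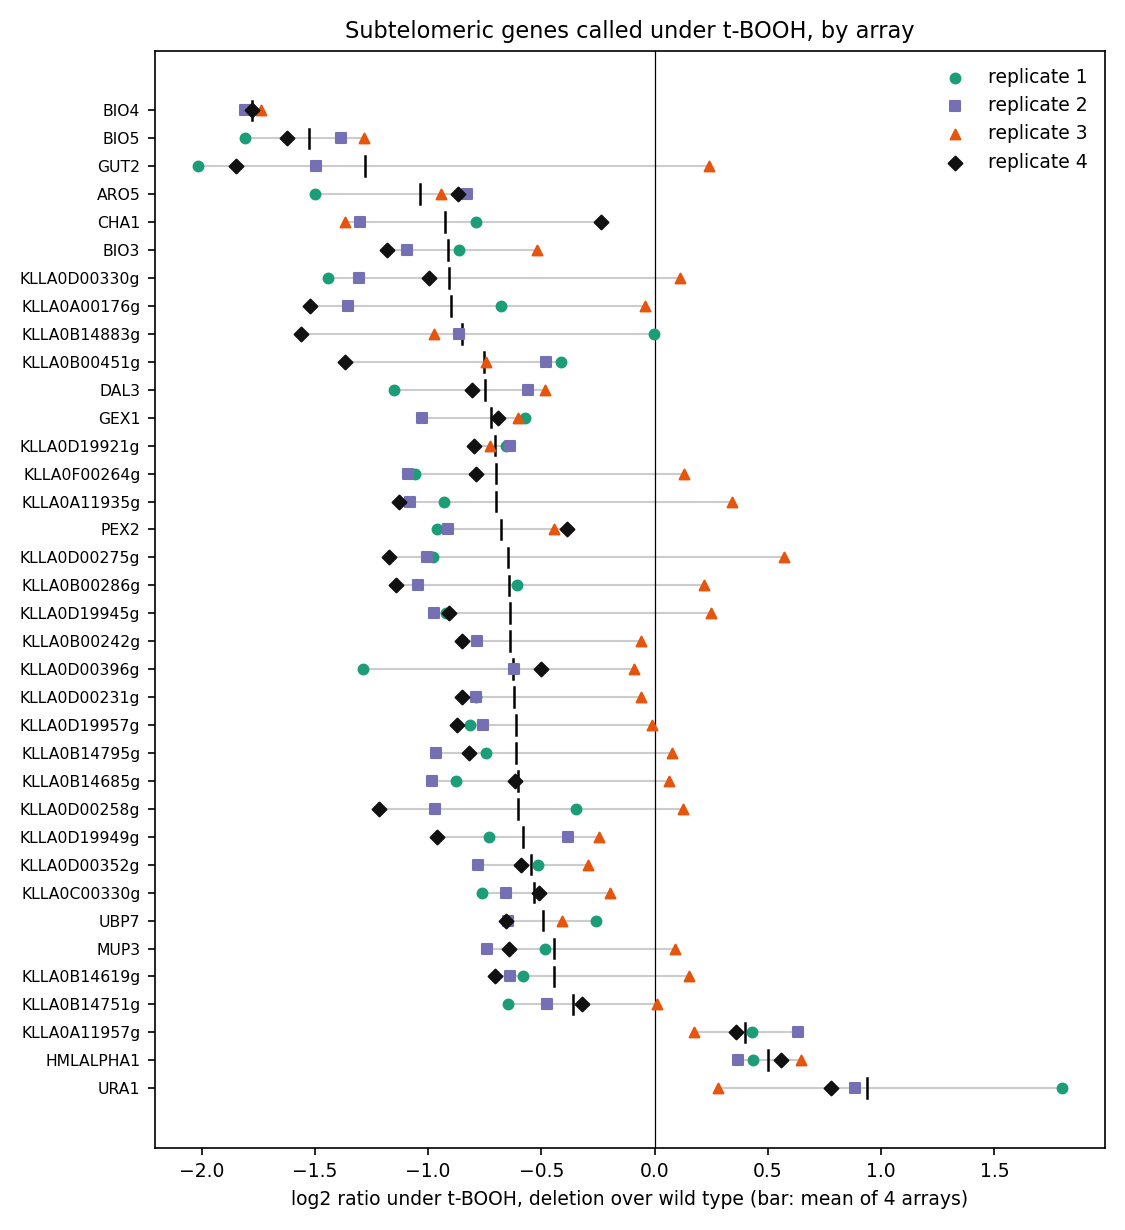
Log2 ratio of deletion over wild type (horizontal axis) of the 36 subtelomeric genes called under t-BOOH, a row per gene, with a symbol for each of the 4 arrays, a black bar at their mean and a grey line over their range. The 33 lower genes are on top and the 3 higher genes at the bottom. For most lower genes replicate 3 lies nearest to or above 0, as for GUT2 at 0.24, while BIO4 lies between -1.81 and -1.74 on all 4 arrays.

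Several lower genes have a known transport or catabolic role. GEX1, at position 7 on the left end of C, had ratios of -0.57, -1.03, -0.60 and -0.69 under t-BOOH (mean -0.72, SE 0.14, adjusted p = 0.00423), and all 4 arrays were below 0. MUP3, a methionine permease gene in S. cerevisiae, had -0.48, -0.74, 0.09 and -0.64 (mean -0.44, adjusted p = 0.0150). Replicate 3 again lay apart, and leaving out t-BOOH replicate 1, 2 or 4 ended the call (-0.38 at the nearest to 0). CHA1 had -0.79, -1.30, -1.37 and -0.24 (mean -0.92, adjusted p = 0.0383), a call lost without t-BOOH replicate 1, 2 or 3 or arsenite replicate 1 or 2 and also without the 3 arrays that stood apart (-0.63). DAL3, an enzyme of allantoin breakdown in S. cerevisiae, had -1.15, -0.56, -0.49 and -0.80 (mean -0.75, adjusted p = 0.0130), a call lost without t-BOOH replicate 1 or 4, where it was -0.58 or further from 0, and also without the 3 arrays that stood apart. KLLA0D19921g had -0.65, -0.64, -0.73 and -0.80, all 4 close together (mean -0.70, SE 0.09, adjusted p = 4.65e-04).

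Among the genes without a symbol, KLLA0A00176g had ratios of -0.68, -1.36, -0.04 and -1.52 (mean -0.90, adjusted p = 0.00186) and KLLA0B14883g of -0.00, -0.86, -0.97 and -1.56 (mean -0.85, adjusted p = 0.00866). The call of KLLA0B14883g was lost without t-BOOH replicate 4 (-0.69). These were the genes of their ends, the left of A and the right of B, with the largest deletion effect averaged over the 3 conditions. Such leading genes on the other ends were KLLA0A11979g, BIO4, KLLA0C00242g, KLLA0C19338g, KLLA0D00330g, KLLA0D19921g, KLLA0E00419g, DAL3, ALD4 and PGA1, with averages between -0.78 and -0.21. All 12 averages were below 0. For KLLA0C19338g, KLLA0E00419g, ALD4 and PGA1 no deletion comparison passed.

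In the opposite direction, 3 genes had more signal in Klyap8∆ after t-BOOH. URA1, the dihydroorotate dehydrogenase of pyrimidine synthesis, had ratios of 1.80, 0.89, 0.28 and 0.78 (mean 0.94, SE 0.19, adjusted p = 0.00638), a call lost without t-BOOH replicate 2. HMLALPHA1, a gene of the silent mating cassette HML, had 0.43, 0.37, 0.65 and 0.56 (mean 0.50, SE 0.09, adjusted p = 0.00368). The neighbouring cassette gene HMLALPHA2 had 0.13, -0.23, 0.10 and -0.15 (mean -0.04, adjusted p = 0.819). In yeasts the mating-type locus itself can carry the same sequence, so the copy behind these signals is uncertain. KLLA0A11957g had 0.43, 0.63, 0.17 and 0.36 (mean 0.40, adjusted p = 0.0455), a call that was lost on leaving out any t-BOOH array other than replicate 3, any untreated array other than replicate 4 or any arsenite array other than replicate 3, and also without the 3 arrays that stood apart.

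The deletion effect under t-BOOH differed from that in untreated cells for 9 subtelomeric genes, 8 with a more negative ratio under t-BOOH and 1, CSS2, with a less negative one. Of all genes 2.84% were called in this test, 1.89% with a more negative and 0.947% with a less negative ratio. GUT2 had ratios of -2.02, -1.49, 0.24 and -1.85 under t-BOOH and 0.78, -0.19, 0.92 and 0.33 in untreated cells, a difference of -1.74 (SE 0.42, adjusted p = 0.0463). KLLA0F00264g had -1.06, -1.09, 0.13 and -0.79 under t-BOOH and 0.31, 0.57, 0.72 and 0.20 in untreated cells (difference -1.15, adjusted p = 0.0234). For GEX1 the untreated ratios were 0.30, 0.44, 0.66 and 0.16, all above the t-BOOH ratios (difference -1.12, SE 0.19, adjusted p = 0.0231). The sign of its mean thus differed between conditions. BIO5 differed by -0.995, ARO5 by -0.85, KLLA0B14619g by -0.78, BIO3 by -0.71 and KLLA0C00330g by -0.66.

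CSS2 had ratios of -0.07, 0.09, -0.05 and -0.30 under t-BOOH and -1.65, -0.87, -0.91 and -0.49 in untreated cells (difference 0.90, SE 0.21, adjusted p = 0.0463). Its level in the wild type was lower under t-BOOH than in untreated cells (log2 change -1.57, limma, adjusted p = 7.22e-05). The calls of t-BOOH minus untreated were not stable when arrays were left out. None of the 138 genes passed without untreated replicate 1 or 3 or without t-BOOH replicate 1, 2 or 4. There were 1 to 4 calls without untreated replicate 2 or any arsenite array, and 43 without t-BOOH replicate 3. Without the 3 arrays that stood apart there were 30. Slide and condition cannot be told apart in this comparison.

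Under arsenite, 10 of the 138 subtelomeric genes were called, all lower in the deletion strain, where 4.3% of all genes were called, 3.39% lower and 0.907% higher. They included DAL3, ARL1, known in S. cerevisiae as a GTPase of Golgi traffic, and AMF1, an ammonium transporter gene in S. cerevisiae. DAL3 had ratios of -0.72, -1.37, -1.29 and -0.17 (1.85-fold lower, SE 0.18, adjusted p = 0.0171), with replicate 4 nearest to 0. KLLA0C00242g had -1.34, -0.99, -0.93 and -0.47 (1.91-fold lower, adjusted p = 0.0275). The others were KLLA0D19949g (-0.70), KLLA0B00220g (-0.62), KLLA0A11979g (-0.61), KLLA0C19085g (-0.58), KLLA0B14773g (-0.45), ARL1 (-0.42), KLLA0D19921g (-0.40) and AMF1 (-0.39). All 10 were below 0 on all 4 arrays. None of the 10 had a neighbour called the same way.

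Leaving out arsenite replicate 1, 2 or 3 left 0 of these 10 calls, although no value came nearer to 0 than -0.33. Without untreated replicate 1 the count was 6, without t-BOOH replicate 2 it was 3 and without t-BOOH replicate 4 it was 4. Without t-BOOH replicate 3 it was 16. It was 24 with the spread of the arsenite arrays alone and 28 without the 3 arrays that stood apart, 3 higher and 25 lower. No gene passed the test of arsenite minus untreated by limma, where 0.0395% of all genes were called and 13 of the 138 had an unadjusted p under 0.05, against 485 of all 5069 genes.

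In untreated cells 2 subtelomeric genes were called, CSS2 and KLLA0D19921g, both lower in the deletion strain, against 0.612% of all genes. CSS2, at position 5 on the left end of C, had the ratios given above and was 1.97-fold lower (SE 0.15, adjusted p = 0.00634). KLLA0D19921g, at position 12 on the right end of D, had ratios of -0.57, -0.38, -0.44 and -0.87 (1.48-fold lower, SE 0.09, adjusted p = 0.00947). It was thus called lower in all 3 conditions, with means of -0.70 under t-BOOH, -0.40 under arsenite and -0.56 in untreated cells, and was below 0 on all 12 arrays. KLLA0C00242g, with -1.16, -0.77, -1.60 and -0.25 in untreated cells, had a mean of -0.95 close to its value under arsenite but did not pass (adjusted p = 0.0699). DAL3, called lower under both stresses, had -0.53, -0.30, -0.69 and -0.79 in untreated cells and did not pass there. The calls of CSS2 and KLLA0D19921g in untreated cells were lost without untreated replicate 2 or 3, and with the spread of the untreated arrays alone. That of KLLA0D19921g was also lost without untreated replicate 4. CSS2 and KLLA0D19921g came no nearer to 0 than -0.77 and -0.49 on leaving out an array.

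The stress responses of the same genes were larger than the deletion effects. In the wild type, t-BOOH changed 72 of the 138 genes, 45 higher and 27 lower (limma's separate-channel analysis, adjusted p under 0.05), where 49.5% of all genes were called, 27.3% higher and 22.2% lower. Arsenite changed 36, 18 higher and 18 lower, where 23% of all genes were called, 12.5% higher and 10.5% lower. In the deletion strain t-BOOH changed 57 genes, 30 higher and 27 lower (43.6% of all genes, 24.1% higher and 19.4% lower), and arsenite 25, 12 higher and 13 lower (10% of all genes, 6.29% higher and 3.71% lower). These comparisons share the untreated channels, and those of both strains share arrays. Without the 3 arrays that stood apart the counts for arsenite were 67 in the wild type and 53 in the deletion strain. For arsenite in the deletion strain the count was 16 without untreated replicate 2 and 38 without t-BOOH replicate 1.

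**Figure D4:**
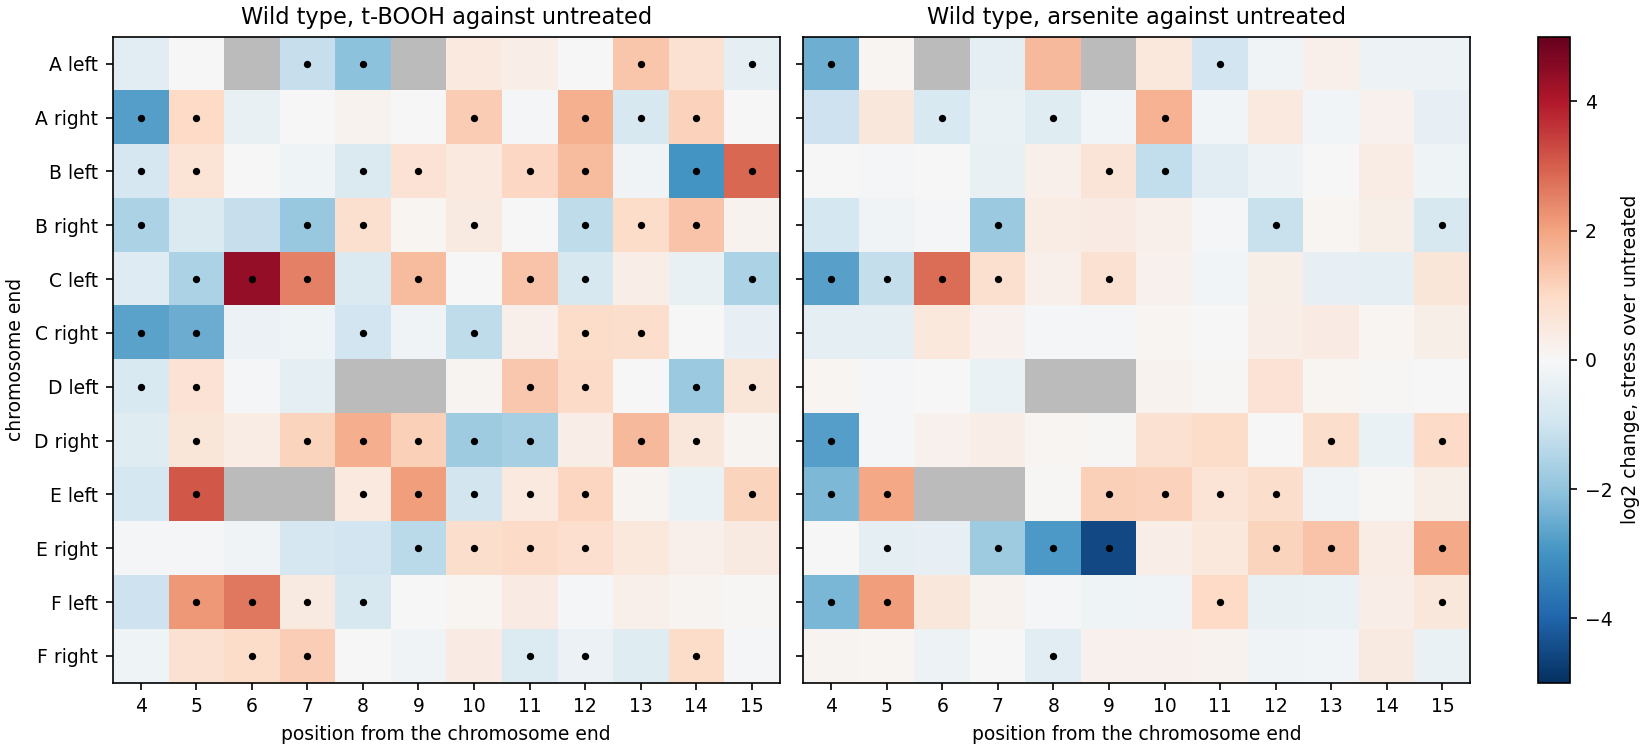
Log2 change of the wild type under t-BOOH (left) and arsenite (right) against untreated cells (colour, red higher and blue lower under stress) for each gene, with the chromosome ends as rows and positions 4 to 15 as columns. A black dot marks an adjusted p under 0.05 and grey squares are genes left out or too dim. KLLA0C00198g at position 6 on the left end of C is the darkest red square under both stresses, and KLLA0E24861g at position 9 on the right end of E the darkest blue under arsenite.

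A few genes rose under both stresses. KLLA0C00198g had log2 intensities in the wild type of 13.72, 13.39, 13.02 and 13.22 under t-BOOH, 12.02, 12.10, 11.71 and 11.06 under arsenite and 9.56, 9.09, 9.22 and 7.87 in untreated cells. It was 21.2-fold higher under t-BOOH (log2 change 4.40, SE 0.30, adjusted p = 2.29e-10) and 6.9-fold higher under arsenite (2.79, SE 0.30, adjusted p = 1.06e-06), and no array of either stress overlapped with untreated cells. In the deletion strain its changes were 4.75 and 2.47. KLLA0E00221g and KLLA0F00242g, both at position 5 and with the same coding length of 1269 bases, rose by 3.12 and 2.15 under t-BOOH and by 1.93 and 2.11 under arsenite in the wild type. KLLA0E00309g rose by 2.11 and 1.17.

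GEX1, the next gene after KLLA0C00198g, had wild-type intensities of 12.83, 14.03, 13.80 and 13.92 under t-BOOH and 11.29, 11.26, 11.27 and 10.66 in untreated cells. Its log2 change was 2.53 in the wild type (SE 0.26, adjusted p = 7.17e-08) and 1.41 in the deletion strain (adjusted p = 1.40e-04). Under arsenite it was 0.79 in the wild type (adjusted p = 0.0321) and 0.90 in the deletion strain (adjusted p = 0.0281), calls that were each lost on leaving out any of 6 arrays (0.63 and 0.67 at the nearest to 0). AMF1 rose by 0.71 under t-BOOH and 0.66 under arsenite in the wild type, and by 0.47 under t-BOOH in the deletion strain, a call lost without untreated replicate 1, 2 or 3, t-BOOH replicate 1 or the 3 arrays that stood apart (0.26 at the nearest to 0).

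Other genes were called in the wild type under 1 stress but not the other, a difference that was not itself tested. ARO5 had a log2 change of 2.88 under t-BOOH in the wild type (SE 0.20, adjusted p = 4.34e-10) and 2.02 in the deletion strain, and -0.22 under arsenite. KLLA0F00264g had 2.65 and 1.5 under t-BOOH in the wild type and the deletion strain. DAL3 had wild-type intensities of 14.04, 14.81, 14.13 and 13.78 under arsenite and 12.54, 12.36, 12.62 and 11.73 in untreated cells, without overlap, and was 3.68-fold higher (adjusted p = 6.31e-05). Its change was 1.57 in the deletion strain, and under t-BOOH 0.45 in the wild type (adjusted p = 0.191). ZWF1, the first enzyme of the pentose phosphate pathway, had 0.94 under arsenite in the wild type and 0.87 in the deletion strain. UBS1 (1.44) and GPB1 (0.99) also rose under arsenite, the call of UBS1 being lost without arsenite replicate 2 (1.2). ARL1, the neighbour of UBS1, and MHO1 rose under both, by 0.84 and 1.26 under t-BOOH and by 1.09 and 1.73 under arsenite.

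OPT1, a transporter of oligopeptides and glutathione in S. cerevisiae, moved in opposite directions. Its wild-type intensities were 6.58, 6.76, 7.04 and 6.47 under t-BOOH, 8.64, 9.12, 8.48 and 8.89 under arsenite and 7.56, 7.31, 7.99 and 7.60 in untreated cells, and the 3 groups did not overlap. The log2 change was -0.90 under t-BOOH (adjusted p = 7.27e-04) and 1.17 under arsenite (adjusted p = 2.28e-04). The deletion strain had -0.92 and 1.19, and no ratio of deletion over wild type passed in any condition. KLLA0D00264g, too dim to be tested, had 6.04, 5.94, 6.10 and 5.80 in the wild type under t-BOOH. OPT1 lay not far above it there, so the sizes of its fall and of any strain difference under t-BOOH are uncertain. MUP3 had 1.12 under t-BOOH and 0.30 under arsenite in the wild type, of which the first passed.

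Under t-BOOH, KLLA0B00473g fell most in the wild type. Its intensities were 8.06, 9.21, 10.10 and 9.20 under t-BOOH and 11.44, 12.67, 11.42 and 12.94 in untreated cells, a 7.87-fold lower level (SE 0.48, adjusted p = 2.74e-05). It lies between BIO3 and ARO5 on the left end of B, both of which rose. KLLA0A12001g had a log2 change of -2.77, URA1 of -2.68 and KLLA0C19338g of -2.49, and all 3 passed. URA1 and KLLA0C19338g are neighbours on the right end of C. In the deletion strain URA1 fell by 1.65. PUL4, a regulator of the genes for the iron-binding pigment pulcherrimin, fell by 1.28 in the wild type and 1.37 in the deletion strain. Its neighbour PUL3, a transporter gene of the same cluster, had -0.19 and -0.20 and did not pass. HMLALPHA1 had -0.79 in the wild type (adjusted p = 0.0110), a call lost without untreated replicate 1 (-0.64 at the nearest to 0), and HMLALPHA2 had 0.34 (adjusted p = 0.175).

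Under arsenite 3 neighbours on the right end of E fell together in the wild type. KLLA0E24861g, at position 9, had wild-type intensities of 10.71, 10.83, 10.72 and 10.81 under arsenite and 15.52, 15.73, 15.64 and 14.30 in untreated cells. It was 23.1-fold lower (log2 change -4.53, SE 0.51, adjusted p = 2.06e-06), and in the deletion strain it fell by 4.70. KLLA0E24883g, at position 8, was 7.23-fold lower in the wild type (adjusted p = 0.00386) and KLLA0E24905g, at position 7, 3.45-fold lower (adjusted p = 0.0358). The call of KLLA0E24905g was lost on leaving out untreated replicate 1, 2 or 3 or any arsenite array, with changes between -2.38 and -1.54. Under t-BOOH the wild type had -1.36, -0.95 and -0.85 for the 3 genes, of which KLLA0E24861g passed (adjusted p = 0.0319).

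**Figure D5:**
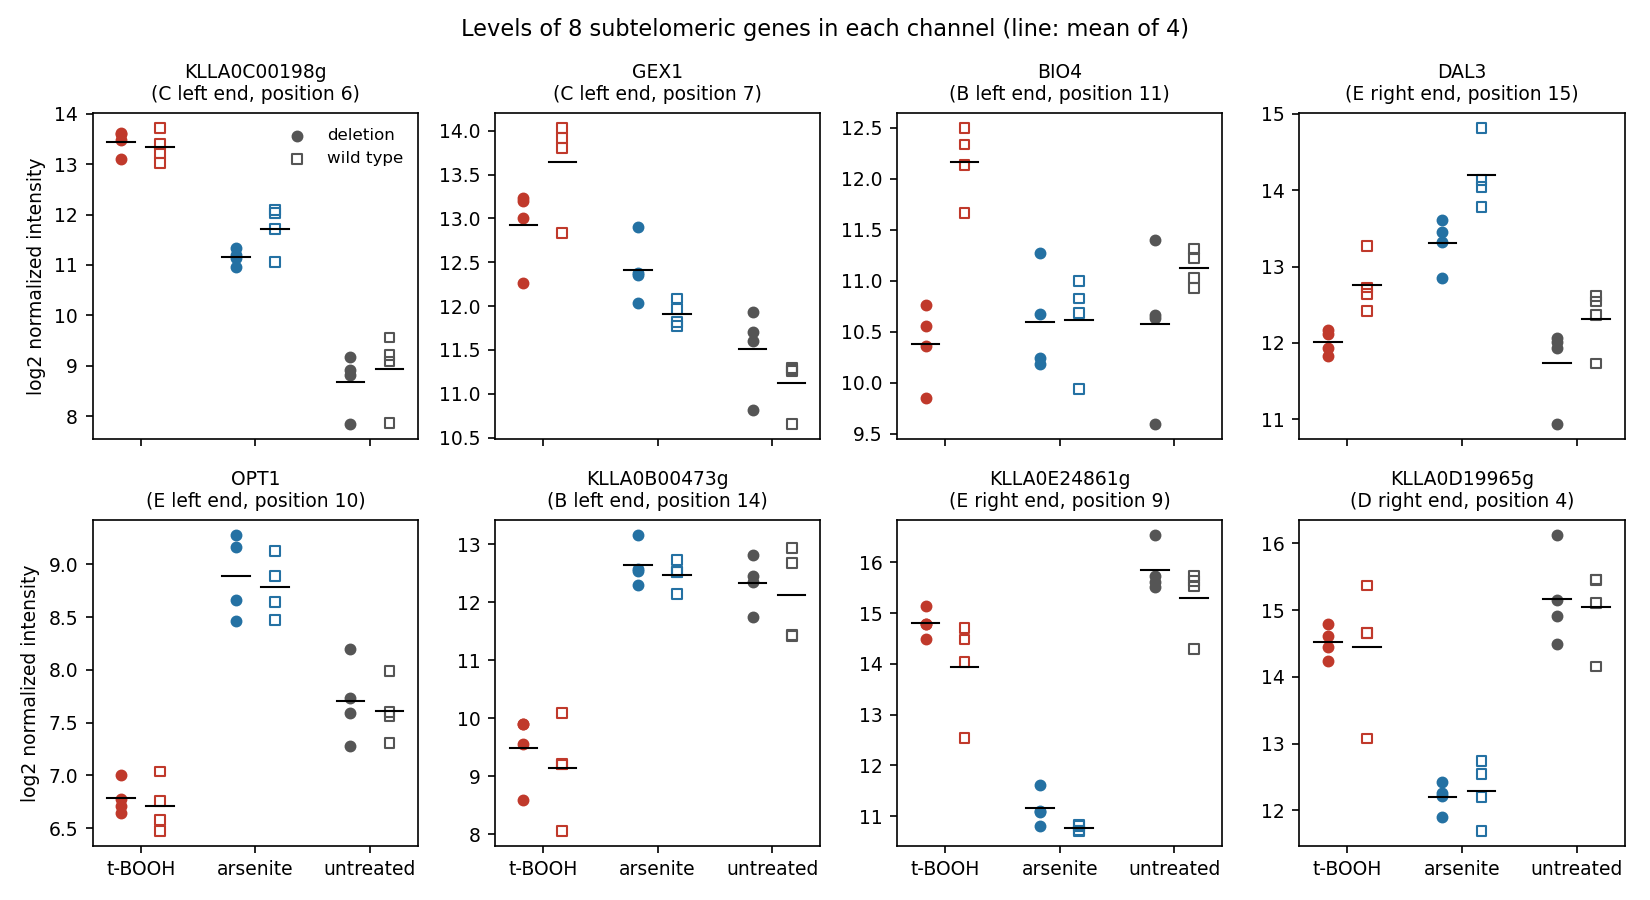
Log2 normalized intensity (vertical axis, a scale of its own in each panel) of 8 subtelomeric genes under t-BOOH, arsenite and in untreated cells (horizontal axis), with filled circles for the 4 deletion channels, open squares for the 4 wild-type channels and a line at each mean. OPT1 lies lower under t-BOOH and higher under arsenite than in untreated cells in both strains, BIO4 under t-BOOH lies at 9.85 to 10.76 in the deletion strain and 11.66 to 12.50 in the wild type, and KLLA0E24861g under arsenite lies at 10.81 to 11.61 in the deletion strain and 10.71 to 10.83 in the wild type.

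A set of 5 genes at position 4 formed another group under arsenite. KLLA0D19965g, KLLA0C00176g, KLLA0A00154g, KLLA0F00220g and KLLA0E00177g lie on 5 different ends and share a coding length of 441 bases. In the wild type they were lower under arsenite by 6.72-, 6.52-, 5.37-, 4.9- and 4.76-fold, with adjusted p of 0.00151, 0.00173, 0.00352, 0.0101 and 0.00773. KLLA0D19965g had wild-type intensities of 12.20, 11.69, 12.74 and 12.54 under arsenite and 15.45, 15.46, 15.10 and 14.16 in untreated cells, without overlap. In the deletion strain the 5 changes were -2.97, -2.89, -2.63, -2.50 and -2.45. The call of KLLA0F00220g in the wild type was lost without arsenite replicate 2. None passed under t-BOOH in the wild type, with values from -1.02 to -0.57.

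Such genes may not be separate measurements. Over the 24 channels, some pairs of genes had profiles that correlated at 0.97 or more and differed by a root mean square of 0.25 or less on the log2 scale, limits set after the values were seen. KLLA0A00154g, KLLA0C00176g and KLLA0D19965g were linked by such pairs with KLLA0B00187g and KLLA0D00187g at position 3 (9 pairs, correlations 0.991 to 0.998), as were KLLA0E00177g and KLLA0F00220g (0.996). KLLA0B00220g and KLLA0D00209g, both of 378 bases, correlated at 0.980, and KLLA0B00242g correlated at 0.987 with KLLA0D00231g and at 0.984 with KLLA0D19957g. These 3 were called lower in the deletion strain under t-BOOH with means of -0.64, -0.62 and -0.61. Of the pair, KLLA0B00220g was called under arsenite (-0.62, adjusted p = 0.0436) and KLLA0D00209g just missed (-0.62, adjusted p = 0.0509). Whether these probes pick up each other's transcripts was not tested, and their separate values are uncertain. With each set of linked genes counted once, 34 genes were called under t-BOOH and 10 under arsenite.

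Untreated replicate 4 and t-BOOH replicate 3 shared a feature among these genes. The deletion ratio of KLLA0E24861g was 0.66, 0.75, 2.24 and -0.22 under t-BOOH and -0.01, -0.11, 0.09 and 2.25 in untreated cells. For KLLA0E24883g the ratios were 0.27, 0.67, 1.26 and -1.25 and -0.29, 0.14, -0.05 and 3.54, and for KLLA0D19965g -1.14, 0.13, 1.53 and -0.20 and -0.95, -0.30, -0.20 and 1.97, in the same order. The 1 untreated array and the 1 t-BOOH array were the highest of their groups for each of the 3 genes. Across the 138 genes the ratios of these arrays correlated at 0.762, and across all 5069 genes at 0.365. This is a description across genes, which are not independent replicates. Genes of like profile enter it separately. On untreated replicate 4 and t-BOOH replicate 3, KLLA0A00154g had 2.01 and 1.38 and KLLA0C00176g 1.95 and 1.55. How far such genes and the 3 above account for the correlations was not tested. No deletion effect on KLLA0E24861g, KLLA0E24883g or KLLA0D19965g passed in any condition. In a separate fit of each condition's arrays alone, with a dye term, residuals were wider for the subtelomeric genes than for all genes. Their root mean square was 0.49 against 0.37 under t-BOOH, 0.28 against 0.25 under arsenite and 0.52 against 0.33 in untreated cells. Genes such as those named here enter these values too.

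Genes that act in telomeric silencing in S. cerevisiae, none of which lies among the subtelomeric genes, were compared between the strains as well. Of 46 tested, 1 was higher and 2 were lower under t-BOOH (median 0.02), and 1 higher and 2 lower under arsenite (median 0.07), against the 18% and 4.3% of all genes called in these comparisons. In untreated cells their median was 0.07. The largest changes under t-BOOH were those of NPT1, an enzyme of NAD synthesis (-1.07, adjusted p = 0.0187), and YKU80, a subunit of the Ku complex that binds chromosome ends (-0.38, adjusted p = 0.122). Under arsenite they were those of CAC2, a subunit of chromatin assembly factor 1 (-0.61, adjusted p = 0.0211), and STN1, a telomere capping protein (-0.55, adjusted p = 0.0144). In untreated cells NPT1 had -0.41 and STN1 0.33, and neither passed.

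The other lists, of families that often lie near chromosome ends in yeasts, held few or none of the subtelomeric genes. Their counts under t-BOOH stand against 10.6% of all genes lower and 7.42% higher. Amino acid, nitrogen and carboxylate transport had 34 genes tested, OPT1 and MUP3 among them, and under t-BOOH the deletion strain had 14 of them lower and 1 higher (median -0.39). Of 18 iron, copper and siderophore genes, GEX1 among them, 3 were lower under t-BOOH. Of 7 genes of the silent mating loci and cell type, which include HMLALPHA1 and HMLALPHA2, 1 was higher and 2 were lower under t-BOOH and 2 were lower under arsenite, where 3.39% of all genes were lower. AMF1, 1 of these 2, was in the list by its symbol although it is known as an ammonium transporter gene in S. cerevisiae. The lists of efflux, oxidoreductase, flocculin and sugar genes held none of the subtelomeric genes, so their values describe genes elsewhere. Drug and toxin efflux had 4 of 12 lower under t-BOOH (median -0.43), oxidoreductases and sulfur 4 of 17 and flocculins and cell wall 2 of 4. The sugar genes SUC2 (0.20) and STL1 (-0.67, adjusted p = 0.0810) did not pass. In the wild type under t-BOOH, where 27.3% of all genes were higher, 8 of the 12 efflux genes were higher and 1 lower, with a median of 0.77 against 0.08 over all genes.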

How the data were processed

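RNA of both strains was hybridised on 12 two-colour Agilent arrays. The deposited scanner files hold spot intensity values in Cy3 and Cy5, and per the file headers also a log10 ratio, which was not used. The authors' deposited table holds normalized log2 ratios, whose correlation with the values used here was 0.991 to 0.999 per array. The RNA was extracted with Trizol and amplified linearly, per the labels' protocols. Median signals were background corrected (normexp, offset 50) and loess normalized within each array in limma 3.58.1 (R 4.3.3), with control spots at weight 0, outlier spots left out and spots of a gene averaged. Ratios were fitted with a coefficient per condition and a dye term, and stress responses by limma's separate-channel analysis (intraspot correlation 0.630). P-values were Benjamini-Hochberg adjusted over 5069 genes at 0.05. Precision is limited by how many arrays there are. The scripts were tested on simulated data. The sources used here do not give the array's genome build, so RefSeq served for symbols, neighbours and coding lengths only. Genes picked for naming were all those called in a comparison with at most 20. In larger comparisons they were the 10 highest and 10 lowest with 1 direction on all 4 arrays (for responses, without overlap). Added to them were the 5 highest and 5 lowest differences between conditions, list genes and the leading gene of each end. For the stress responses only some of the picked genes are given in the text, while the checks under other settings covered the others too. Neighbours of picked genes, genes in runs, and those used to show how arrays or profiles differ were chosen after their values were seen. The members and lists were chosen with earlier results of these data known. Protein family resemblance was not analysed here. Replicate numbers were not used to pair the arrays in the main fits.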

Additional observations from a re-analysis of the deposited data

Results flagged for a closer look

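Of 29 groups of 4 arrays examined, 3 had an array far from the other 3. The groups were the named genes called in a deletion comparison and the median of the 138 genes in each condition. Chance gives about 1 in 20 of such groups. The named genes under t-BOOH were mostly picked for 1 sign on all 4 arrays, so the count cannot be set against chance. ARO5 had a log2 ratio of -1.5 on t-BOOH replicate 1, with the next at -0.94. KLLA0B14773g had -0.16 on arsenite replicate 4, with the next at -0.54. ARL1 had -0.0391 on arsenite replicate 4, with the next at -0.51. Most called genes of mixed sign under t-BOOH were not examined. KLLA0D19945g, 1 of these, had -0.92, -0.97, 0.25 and -0.91 on t-BOOH replicates 1 to 4.

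The effect of the deletion differed between t-BOOH and untreated cells by a test of the difference itself (limma) for CSS2 (0.90), GUT2 (-1.74), KLLA0F00264g (-1.15), GEX1 (-1.12), BIO5 (-0.995) and ARO5 (-0.85), among others. For CSS2 the ratio was nearer to 0 under t-BOOH, and for the other genes named it was more negative. Slide and condition cannot be told apart in these differences.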

How the results depend on the processing

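No call of a named gene changed sign under the alternatives run on it, which for some settings covered 32 or 89 of the 121 calls. In the larger comparisons most named genes were picked for 1 direction on all 4 arrays or for no overlap. A change of sign was therefore unlikely from the start, and most called genes of mixed sign under t-BOOH were not checked. The untreated median of the 138 genes changed sign without untreated replicate 4 (-0.04). Of the subtelomeric genes called in untreated cells (2), 1 was called with median centring, 0 with the untreated arrays alone and 4 without the 3 arrays that stood apart. Under arsenite (10) there were 5 calls with Agilent's processed signals, 3 with median centring, 6 with the replicate block, 24 with the arsenite arrays alone and 28 without the 3 arrays. Under t-BOOH (36) there was 1 with the t-BOOH arrays alone. For t-BOOH minus untreated (9) there were 2 with the replicate block, 1 with the arrays compared alone and 30 without the 3 arrays. The arsenite response without the 3 arrays had 67 calls in the wild type and 53 in the deletion strain. The cause of these changes was not tested, and the share of all genes called under each setting is not given here. Leaving out 1 array at a time gave 13 to 54 calls under t-BOOH, 0 to 16 under arsenite and 0 to 3 in untreated cells, and 0 to 43 for t-BOOH minus untreated. For the responses it gave 61 to 82 (t-BOOH) and 28 to 49 (arsenite) in the wild type, and 45 to 68 and 16 to 38 in the deletion strain. Arrays of the same replicate number mostly did not deviate together: 2 of 12 correlations of their ratios and 4 of 12 of their levels were over 0.1. The highest were 0.404 for ratios and 0.352 for levels, both for replicate 1 of untreated cells and arsenite. With the replicate block 35 genes were called under t-BOOH, and 10 of the 121 named calls were lost, that of CHA1 under t-BOOH among them. Median centring moved the median ratio of the 138 genes under t-BOOH to -0.23. The comparison of protein families was not run.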
